A study of Mus musculus with 8 samples.

Results

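The genes described here encode the enzymes of cholesterol and fatty acid synthesis, with a sterol carrier and the regulators of the pathway. They were chosen by symbol, as 29 listed targets of the sterol regulatory element-binding proteins (SREBPs), and the list does not cover every gene of the pathway. The choice was made with earlier results of these data known. Of the 29, 27 had a row in the deposited normalized table of 16418 genes, and the same 27 passed the count filter and were among 11772 genes tested. The other 2, the desaturase genes Scd1 and Fads2, were found in the deposited count table of 53465 genes but had too few reads to be tested. By role, 18 members are sterol synthesis enzymes, 7 act in fatty acid synthesis and 4 are regulators or the carrier.

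Expression was measured by poly(A) RNA sequencing in naive helper T cells of mouse spleen and lymph node, sorted as CD3+CD4+CD25-CD44low/-CD62L+. All mice had the genotype Satb1fl/fl x CD4-CreERT2wt/+. Both groups therefore carry loxP-flanked alleles of Satb1, a chromatin organiser of T cells, and a Cre recombinase that CD4 sequences drive and tamoxifen switches on. The 4 KO libraries are labelled with tamoxifen and the 4 WT libraries as WT, with no tamoxifen named, so effects of the drug and of the deletion cannot be told apart. The protocol speaks of splenic cells alone. The labels name no age, dose or time after treatment, and do not say whether each library is a separate animal. The p-values therefore measure the spread between these libraries, which can be technical.

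Cholesterol is built from acetyl-CoA through mevalonate, squalene and lanosterol, and fatty acids are built from the same acetyl-CoA through malonyl-CoA. SREBP precursors sit in the endoplasmic reticulum with the escort protein Scap. When sterols are plentiful, Insig proteins hold them there. When sterols fall, the precursors move to the Golgi, proteases cut them, and the released part enters the nucleus and switches on genes of both branches. T cells raise this programme when they are activated and build membrane, while resting naive cells need little of it.

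KO libraries held 7544075 to 9253620 counted reads and WT libraries 5227758 to 21998174. Sample_2911_WT had the fewest reads of all libraries and Sample_2914_WT the most. Levels are counts-per-million values (CPM) on library sizes scaled by the trimmed mean of M values, and values by library follow the order Sample_2907_KO, Sample_2908_KO, Sample_2909_KO and Sample_2910_KO, then Sample_2911_WT, Sample_2913_WT, Sample_2914_WT and Sample_2915_WT. Satb1 had 909.9 ± 87.2 CPM in KO against 1033 ± 41.4 CPM in WT (SD, n = 4 each), with overlapping groups and an adjusted p of 0.0582 (edgeR quasi-likelihood test, Benjamini-Hochberg adjustment). KO and WT are therefore used as the names of the libraries, whatever the Satb1 level. Naive CD4 T cell markers summed to 6898 to 7206 CPM in KO and 7261 to 7501 CPM in WT.

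Some sterol and fatty acid synthesis genes were higher in KO, while 20 of the 27 tested members were not called and the intervals of 15 included 0. A gene was called changed at an adjusted p under 0.05 over all genes tested. By that rule 7 of the 27 tested members (25.9%) were higher in KO and 0 were lower, whereas 3.98% of all tested genes were called higher, 2.41% were called lower and 6.39% were called in either direction. The members called were the sterol synthesis genes Cyp51, Sqle, Fdft1 and Hmgcs1, the fatty acid genes Scd2 and Fasn, and the regulator Srebf2. All of these changes were under 1.5-fold. The log2 fold change was above 0 in 25 of the 27 tested members (for Sc5d not in 9 of 19 alternatives, library size scaling among them), with a median of 0.19, and above 0 in 49.9% of all tested genes, with a median of -0.00047. In 7 tested members (25.9%) every KO library lay above every WT library, which held for 6.23% of all tested genes.

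**Figure D1:**
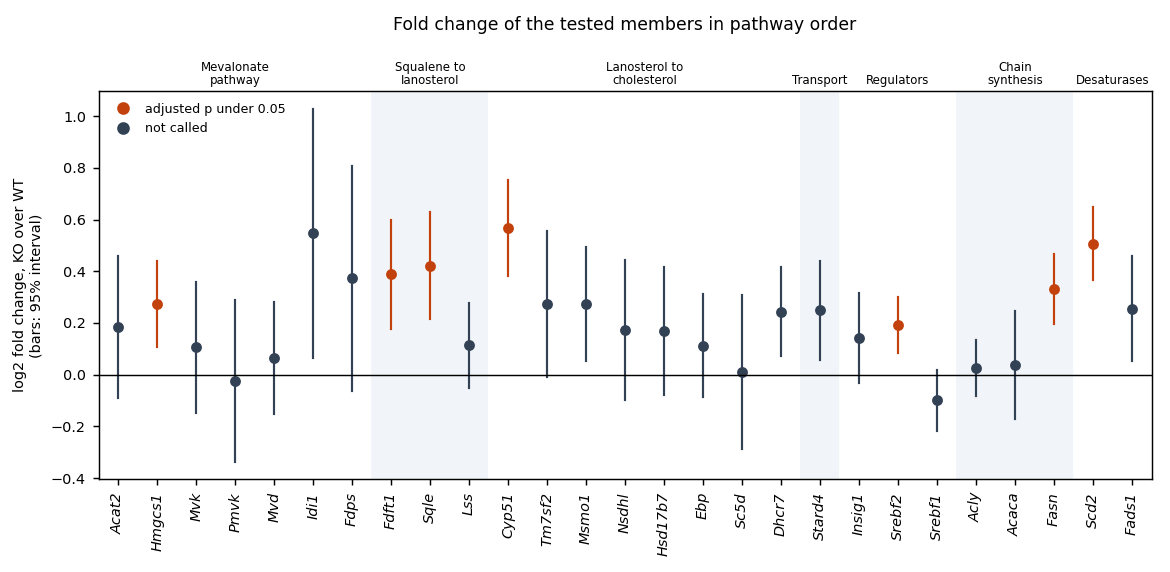
Log2 fold change of KO over WT (vertical axis) for the 27 tested members in pathway order (horizontal axis), with 95% intervals from the edgeR fit, and members with an adjusted p under 0.05 in orange. The highest points are Cyp51 at 0.57, Idi1 at 0.55 and Scd2 at 0.51, and the lowest is Srebf1 at -0.10.

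The strength of these calls differed between members, as the plot of adjusted p under other settings shows. Cyp51 and Scd2 were called in the reported fit and in all 19 alternatives, which changed the tool, scaling, filter or depth or left libraries out. Sqle and Fasn missed the threshold in 1 alternative each, without the shallowest and the deepest WT library (Sample_2911_WT and Sample_2914_WT) together. Fdft1 missed it in 6 of 19, Srebf2 in 9 and Hmgcs1 in 14. Without those WT libraries together, 2 members were called. The count was 4 without Sample_2910_KO, without Sample_2911_WT or without Sample_2914_WT.

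**Figure D2:**
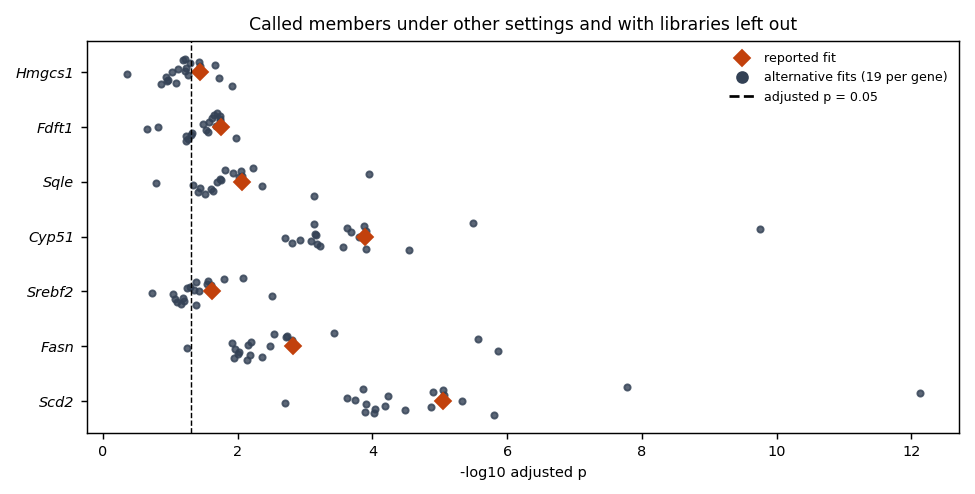
Adjusted p of the 7 called members on a -log10 scale (horizontal axis; the dashed line marks 0.05) in the reported fit (orange diamonds) and in 19 alternative fits (dark points). Cyp51 and Scd2 lie to the right of the line in every fit. Points of Hmgcs1 and Srebf2 lie on both sides of it, to the left in 14 and 9 of the 19 alternatives.

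In the mevalonate part, which makes the isoprenoid building blocks, 1 of 7 members was called. Hmgcs1, the cytosolic synthase that joins acetoacetyl-CoA with acetyl-CoA (mm10 chromosome 13, 119690379 to 119708260, plus strand), had 68.5, 78.9, 64.8 and 74.7 CPM in KO and 53.1, 58.9, 56.7 and 67.5 CPM in WT. The groups overlapped, because the highest WT library, Sample_2915_WT, stood above the lowest KO library. The means were 71.8 ± 6.29 and 59.1 ± 6.14 CPM (SD, n = 4 each), a 1.21-fold difference (log2 fold change 0.27, SE 0.0813, edgeR adjusted p = 0.0367). The call held under both other count filters (0.0217 and 0.0370) and was lost with DESeq2 and limma, library size scaling, the non-robust fit, thinning and most leave-outs of libraries, with adjusted p up to 0.446.

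The largest fold change of this part was that of Idi1, the isomerase of isopentenyl diphosphate, with 10.3, 9.54, 6.16 and 7.77 CPM in KO and 4.44, 6.31, 3.88 and 8.57 CPM in WT. Its log2 fold change of 0.55 had a 95% interval of 0.06 to 1.03 and was not called (edgeR adjusted p = 0.196), and it was called only without Sample_2915_WT (adjusted p = 0.0369). Fdps, the farnesyl diphosphate synthase, averaged 6.73 ± 1.29 CPM in KO against 5.19 ± 0.741 CPM in WT (log2 fold change 0.37, edgeR adjusted p = 0.377). Of its exon bases 26.7% are shared with an overlapping gene, Gm43738, on the same strand. The thiolase gene Acat2 had a log2 fold change of 0.19, the kinase genes Mvk and Pmvk 0.11 and -0.02, and the decarboxylase gene Mvd 0.06. Their intervals all included 0, and that of Pmvk ran from -0.34 to 0.29.

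Of the 3 genes that lead from farnesyl diphosphate to lanosterol, 2 were called. Fdft1, the squalene synthase (chromosome 14, 63145150 to 63179578, minus strand), had 29.3, 30.8, 32.0 and 31.6 CPM in KO and 20.5, 27.4, 23.6 and 23.2 CPM in WT. All KO libraries were above all WT libraries, of which Sample_2913_WT came closest. The rise was 1.31-fold (log2 fold change 0.39, SE 0.103, edgeR adjusted p = 0.0177). The libraries do not mark strand, and 18.3% of the exon bases of Fdft1 overlap Ctsb on the opposite strand, which had 151.2 CPM in KO and 151.3 CPM in WT. Fdft1 lost its call with libraries thinned to the smallest (adjusted p = 0.153), without Sample_2911_WT and Sample_2914_WT together (0.224), and without Sample_2910_KO, Sample_2911_WT, Sample_2914_WT or Sample_2915_WT (0.0503 to 0.0589).

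Sqle, the squalene epoxidase and a rate-limiting step of the sterol part (chromosome 15, 59315077 to 59331192, plus strand), had 63.9, 52.3, 58.2 and 56.8 CPM in KO and 33.2, 41.5, 43.2 and 51.8 CPM in WT. The groups did not overlap, but Sample_2915_WT lay just below the lowest KO library. The rise was 1.34-fold (57.8 ± 4.78 against 42.4 ± 7.65 CPM, SD, n = 4 each; log2 fold change 0.42, SE 0.10, edgeR adjusted p = 0.00853). Without Sample_2911_WT and Sample_2914_WT together its log2 fold change was 0.29 (adjusted p = 0.166). Lss, which cyclises squalene epoxide to lanosterol, averaged 57.2 ± 4.28 CPM in KO against 52.5 ± 3.16 CPM in WT. Its log2 fold change of 0.11 had an interval of -0.05 to 0.28.

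From lanosterol to cholesterol 1 of 8 members was called, and all 8 had a log2 fold change above 0, though that of Sc5d was below 0 in 9 of 19 alternatives, down to -0.116 without Sample_2908_KO and at -0.0062 when scaled by library size only. Cyp51, the lanosterol 14-alpha demethylase (chromosome 5, 4081145 to 4104746, minus strand), had the highest fold change of all tested members. Its libraries held 87.4, 79.8, 78.3 and 77.7 CPM in KO and 48.6, 43.1, 59.7 and 62.3 CPM in WT, so the lowest KO library stood well above the highest WT library. The rise was 1.48-fold (80.8 ± 4.50 against 53.4 ± 9.11 CPM, SD, n = 4 each; log2 fold change 0.57, SE 0.0905, edgeR adjusted p = 0.000129). It overlaps Akap9 over 3.76% of its exon bases on the opposite strand, and Akap9 had a log2 fold change of 0.05 and was not called. Across the alternatives the log2 fold change of Cyp51 ran from 0.49 to 0.64.

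The demethylation and reduction steps that follow Cyp51 had smaller differences. Msmo1, the methylsterol oxidase, had 52.5, 47.3, 41.4 and 40.7 CPM in KO and 34.9, 29.9, 38.6 and 44.6 CPM in WT (log2 fold change 0.27, edgeR adjusted p = 0.146). Its groups overlapped through Sample_2915_WT, without which the adjusted p was 0.0450. Dhcr7, the 7-dehydrocholesterol reductase of the last step, averaged 53.5 ± 4.00 CPM in KO against 45.4 ± 3.31 CPM in WT (log2 fold change 0.24, edgeR adjusted p = 0.0845), and passed without Sample_2909_KO (0.0410). The sterol reductase gene Tm7sf2 had a log2 fold change of 0.27, Nsdhl and Hsd17b7, which act in C4 demethylation, both 0.17, and the desaturase gene Sc5d 0.01. Ebp encodes a sterol isomerase that also binds tamoxifen, the drug named for the KO group alone. It had 38.3, 33.99, 33.6 and 33.5 CPM in KO and 34.2, 29.4, 35.4 and 29.4 CPM in WT, with a log2 fold change of 0.11 (interval -0.09 to 0.31, edgeR adjusted p = 0.609). Sc5d varied more within KO, from 51.2 to 79.8 CPM, than between the groups.

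**Figure D3:**
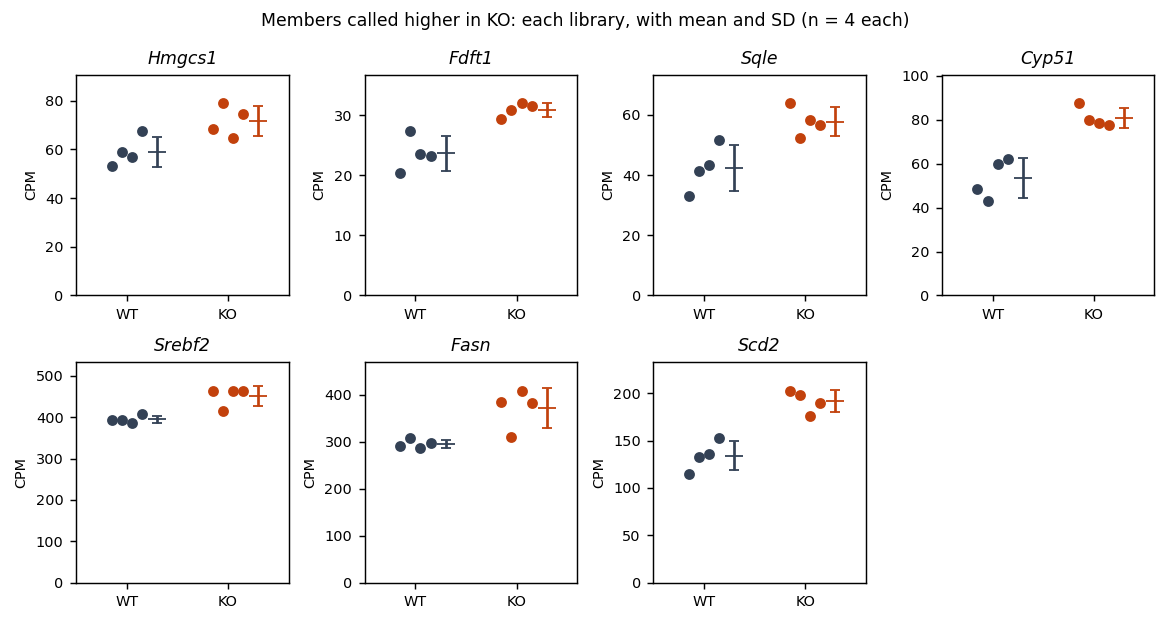
CPM (vertical axis) of the 7 called members in each WT and KO library (points), with the mean and SD of 4 libraries beside them. For Cyp51 and Scd2 the groups are well apart, for Fasn the lowest KO library (309.7 CPM) is next to the highest WT library (308.2 CPM), and for Hmgcs1 the groups overlap.

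Among the regulators, 1 of 3 was called. Srebf2, whose product mainly drives sterol genes (chromosome 15, 82147181 to 82205379, plus strand), had 464.1, 413.7, 463.6 and 463.9 CPM in KO and 393.3, 392.7, 386.6 and 407.1 CPM in WT. The KO libraries were all above the WT libraries, with Sample_2908_KO close to the WT group. The rise was 1.14-fold (log2 fold change 0.19, SE 0.0537, edgeR adjusted p = 0.0243) and was the smallest of the called changes. It was lost in 9 of 19 alternatives: both fits to the normalized values, the fit without the WT pair, and those without any single library other than Sample_2908_KO and Sample_2915_WT.

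Srebf1, whose products mainly drive fatty acid genes, averaged 147.2 ± 8.38 CPM in KO against 157.5 ± 4.52 CPM in WT (log2 fold change -0.10, interval -0.22 to 0.02, edgeR adjusted p = 0.396). It shares 1.93% of its exon bases with Rai1 on the opposite strand, which was called lower at a log2 fold change of -0.25. Insig1, an SREBP target whose product holds SREBPs back, had 55.3, 52.1, 51.9 and 53.2 CPM in KO and 44.4, 53.5, 43.1 and 52.4 CPM in WT. The WT libraries fell into a low and a high pair, and the log2 fold change of 0.14 was not called (edgeR adjusted p = 0.405). Stard4, a soluble sterol carrier, averaged 54.1 ± 6.11 CPM in KO against 45.4 ± 5.80 CPM in WT (log2 fold change 0.25, edgeR adjusted p = 0.123), and passed without Sample_2909_KO (0.0418).

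In the fatty acid branch 2 of 5 tested members were called. Acly, which makes cytosolic acetyl-CoA from citrate for both branches, averaged 287.5 ± 7.87 CPM in KO against 282.0 ± 13.4 CPM in WT (log2 fold change 0.03, interval -0.08 to 0.14, edgeR adjusted p = 0.860). Acaca, the acetyl-CoA carboxylase of the committed step, was at 31.8 ± 2.49 and 30.9 ± 3.63 CPM (log2 fold change 0.04, interval -0.17 to 0.25, edgeR adjusted p = 0.907). Fasn, the fatty acid synthase (chromosome 11, 120805846 to 120824547, minus strand), had 385.7, 309.7, 408.9 and 381.8 CPM in KO and 290.5, 308.2, 287.5 and 296.6 CPM in WT. The groups did not overlap, although Sample_2908_KO stood beside the highest WT library. The rise was 1.26-fold (log2 fold change 0.33, SE 0.0657, edgeR adjusted p = 0.00154), and its adjusted p was 0.0558 without Sample_2911_WT and Sample_2914_WT together.

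Among the desaturase genes 1 of 2 tested was called, with the lowest adjusted p of all members. Scd2, the stearoyl-CoA desaturase that these cells express (chromosome 19, 44293674 to 44306864, plus strand), had 202.7, 198.2, 176.5 and 189.8 CPM in KO and 115.2, 132.5, 136.2 and 152.9 CPM in WT. The lowest KO library was above the highest WT library, and Sample_2915_WT was again the highest of its group. The rise was 1.42-fold (191.8 ± 11.5 against 134.2 ± 15.5 CPM, SD, n = 4 each; log2 fold change 0.51, SE 0.0692, edgeR adjusted p = 9.02e-06). Its close relatives, which could share reads with it, were at low levels. Scd1 had 0, 3, 0 and 4 reads in KO, 7 in all, and 1 read in all of WT, a ratio of 9.20 with an exact 95% counting interval of 1.18 to 415. That interval pools the reads and leaves out the spread between libraries, and the Scd1 groups overlapped. Scd3 had 7 reads in KO and 12 in WT, and Scd4 80 and 37 (log2 fold change 1.28, SE 0.441, edgeR adjusted p = 0.0843).

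Fads1, the delta-5 desaturase of polyunsaturated fatty acids, had 27.2, 28.6, 30.4 and 30.8 CPM in KO and 24.1, 23.8, 25.6 and 24.0 CPM in WT. Its groups did not overlap, but the log2 fold change of 0.26 (interval 0.05 to 0.46) was not called (edgeR adjusted p = 0.139). Fads2, the delta-6 desaturase, had 0 reads in all libraries, so a level of up to 0.0882 CPM over the KO group and 0.0671 CPM over the WT group could have gone unseen (3 reads, counting error only).

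Averaged over their genes, the sterol and the fatty acid branch had similar differences between the groups, but both were uneven within. Log2 fold changes ran from -0.02 to 0.57 in the sterol branch. In the fatty acid branch they were 0.03 for Acly and 0.04 for Acaca, against 0.26 for Fads1, 0.33 for Fasn and 0.51 for Scd2. The median log2 fold change was 0.21 over the 18 sterol enzymes, of which 4 were called, and 0.26 over the 5 tested fatty acid enzymes, of which 2 were called. The mean log2 CPM over the sterol enzymes was 4.97, 4.91, 4.72 and 4.85 in the KO libraries and 4.55, 4.57, 4.59 and 4.76 in the WT libraries. Sample_2909_KO thus lay below Sample_2915_WT in this branch. For the fatty acid enzymes the mean was 6.87, 6.77, 6.82 and 6.86 in KO and 6.53, 6.58, 6.58 and 6.70 in WT, with no overlap. The difference of group means was 0.24 for both branches, on this log2 scale. No difference between the branches was tested.

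**Figure D4:**
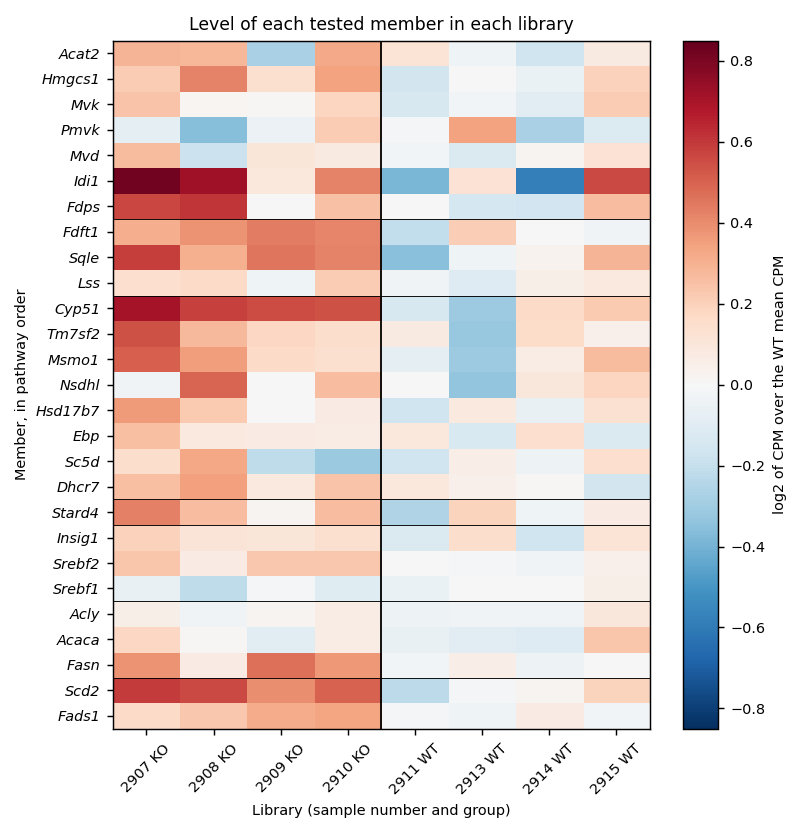
Log2 of the CPM of each tested member over its WT mean (colour), by library (columns, KO left of the line) and in pathway order (rows). Most KO cells are red, Sample_2907_KO holds the highest KO value in 14 of 27 members, and Sample_2915_WT is the highest WT library in 17 of 27.

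The libraries contributed unequally. Sample_2907_KO was the highest KO library for 14 of the 27 tested members and Sample_2909_KO the lowest for 12. In WT, Sample_2915_WT was the highest for 17 and the lowest for 1, and Sample_2911_WT the lowest for 10. Leaving out Sample_2915_WT raised the number of called members to 8, as did leaving out Sample_2909_KO. Median log2 fold changes of the members stayed between 0.17 and 0.23 in all 19 alternatives, while the count of calls ranged from 2 to 8 and no member was called lower.

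Per exon length, the SREBP genes and Acly, Fasn and Scd2 stood highest. The level of Srebf2 was 55.0 ± 1.21 RPKM, which is CPM divided by exon length in kilobases, in WT and that of Acly 53.4 ± 2.54 RPKM, which differ by less than their spread. Srebf1 (28.0 ± 0.802 RPKM), Fasn (27.0 ± 0.836 RPKM) and Scd2 (24.6 ± 2.83 RPKM) came next, and the ranges of mean ± SD of neighbours in this order overlapped. Sterol enzymes lay lower in WT, from 14.9 ± 1.05 RPKM for Mvd and 13.9 ± 1.36 RPKM for Ebp down to 1.65 ± 0.605 RPKM for Idi1 and 1.23 ± 0.176 RPKM for Fdps. Fdps shares 26.7% of its exon bases with Gm43738 on the same strand. How reads in shared bases were counted is not given, and their part in the low value of Fdps was not tested. Cyp51 was at 12.1 ± 2.06 RPKM in WT, near Hmgcs1 at 12.9 ± 1.34 RPKM. In KO it stood at 18.3 ± 1.02 RPKM, the highest sterol enzyme of that group. Acaca was at 1.81 ± 0.212 RPKM in WT, the lowest tested gene of the fatty acid branch.

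**Figure D5:**
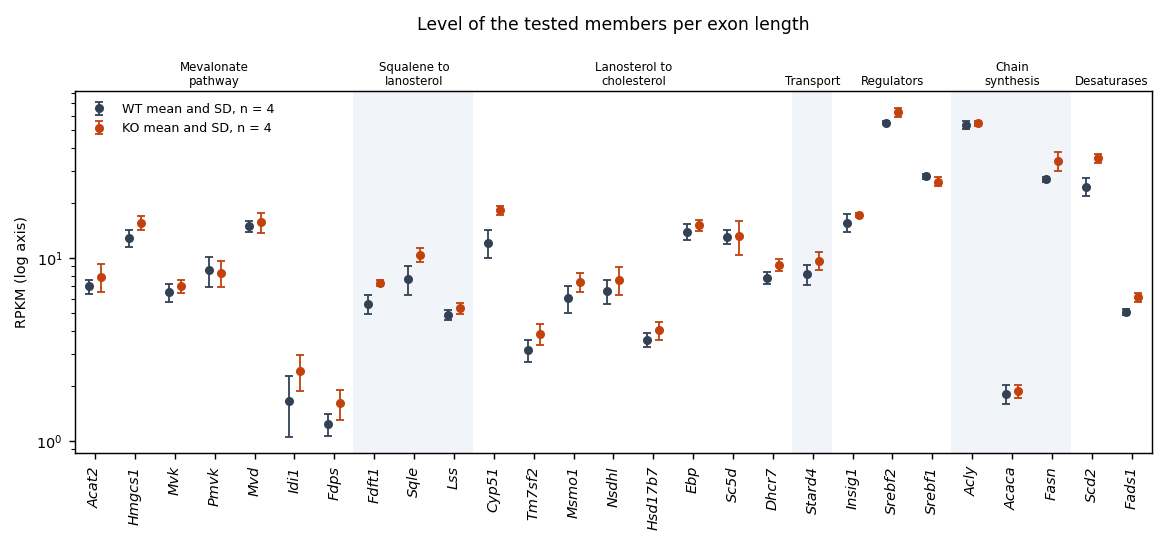
Mean RPKM with SD (log vertical axis) of the tested members in pathway order in WT (dark) and KO (orange), 4 libraries each. Srebf2 and Acly stand highest at 55.0 and 53.4 RPKM in WT, and Fdps lowest at 1.23 RPKM. Fdps shares exon bases with Gm43738 on the same strand.

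The promoters of the members were searched for 3 short sequences tied to this pathway. RefSeq promoter windows (GRCm38.p6, 250 bases before to 50 after a transcript start) were matched by symbol for 22 members, with 27 windows. Those of Fdft1, Sqle, Fdps, Stard4, Scd1, Scd2 and Fads1 were not used here. The CCAAT box, bound by NF-Y, a partner of SREBPs, was searched as CCAAT on both strands. It was found in 20 of 27 member windows (74.1%) and in 37.4% of all 32851 windows. By gene it was found for all 4 called members with a window and for 15 of the other 18, among which Fads2 was untested. Most members of both kinds carried it, so this comparison could not show whether it separates called from uncalled members. The sterol element TCACNCCAC, on both strands, was found in 1 member window, that of Hmgcs1, and in 1.24% of all windows. The E-box CACGTG, which also reads the same on the other strand, was found in 4 member windows (14.8%) and in 7.15% of all. A match is a description of letters in the window and not a measured binding site.

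The stretches before the start are shown for the called members that have a window, and for Mvk and Acly, which were not called. They hold only bases that lie in no annotated exon, are written 5′ to 3′ on the strand of the gene in lower case, and carry the sequences searched for in capitals, with ATTGG where the CCAAT box lies on the other strand.
Hmgcs1, chr13:119690101-119690350, plus strand: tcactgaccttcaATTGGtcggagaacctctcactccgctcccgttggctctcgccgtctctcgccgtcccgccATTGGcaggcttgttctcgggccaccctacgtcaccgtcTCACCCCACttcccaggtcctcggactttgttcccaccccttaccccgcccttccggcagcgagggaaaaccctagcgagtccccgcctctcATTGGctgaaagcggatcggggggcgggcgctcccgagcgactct
Fasn, chr11:120824548-120824797, minus strand: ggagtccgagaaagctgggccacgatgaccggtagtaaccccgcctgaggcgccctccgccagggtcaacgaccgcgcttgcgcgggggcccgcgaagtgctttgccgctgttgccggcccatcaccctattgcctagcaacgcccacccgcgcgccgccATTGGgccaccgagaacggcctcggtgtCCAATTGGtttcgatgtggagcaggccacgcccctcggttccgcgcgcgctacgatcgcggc
Srebf2, chr15:82147019-82147180, plus strand: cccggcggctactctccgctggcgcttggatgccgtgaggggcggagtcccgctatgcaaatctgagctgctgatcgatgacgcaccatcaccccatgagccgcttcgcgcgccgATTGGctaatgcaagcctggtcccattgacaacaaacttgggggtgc
Cyp51, chr5:4104747-4104947, minus strand: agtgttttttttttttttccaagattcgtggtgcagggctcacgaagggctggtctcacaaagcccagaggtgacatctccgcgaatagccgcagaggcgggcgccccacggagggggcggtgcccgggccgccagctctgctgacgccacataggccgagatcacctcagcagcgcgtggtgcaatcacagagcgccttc
Mvk, chr5:114444061-114444268, plus strand: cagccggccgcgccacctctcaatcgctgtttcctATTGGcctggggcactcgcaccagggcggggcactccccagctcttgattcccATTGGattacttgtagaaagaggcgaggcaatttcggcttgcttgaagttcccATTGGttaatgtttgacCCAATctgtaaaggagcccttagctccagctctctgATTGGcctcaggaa
Acly, chr11:100528001-100528250, minus strand: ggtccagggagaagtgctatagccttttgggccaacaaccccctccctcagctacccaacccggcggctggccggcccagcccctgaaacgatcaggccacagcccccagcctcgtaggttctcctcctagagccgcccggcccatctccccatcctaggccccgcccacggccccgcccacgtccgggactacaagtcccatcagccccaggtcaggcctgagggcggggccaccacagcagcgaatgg
Hmgcs1 carries the sterol element 137 bases before the start, between CCAAT boxes that begin 176 and 45 bases before it on the other strand. In Fasn a box on each strand overlaps to form the run CCAATTGG, 62 bases before the start. The CCAAT box of Cyp51 begins 29 bases before the RefSeq start, inside an annotated exon, so the printed stretch has no capitals. Mvk carries 5 boxes and was not called, whereas Acly has none in the printed stretch and 1 at 37 bases after the start.

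Other genes of the pathway, from lists set down beside the members, gave a mixed picture. Of all tested genes, 3.98% were called higher and 2.41% lower, which are the shares to set beside the counts of these lists. Among genes for further sterol steps and isoprenoid side branches, the farnesyltransferase gene Fntb had a log2 fold change of -0.22 (interval -0.40 to -0.04, edgeR adjusted p = 0.167) and Pggt1b, which encodes a subunit of a protein prenyltransferase, -0.18 (0.425). The sterol reductase gene Lbr was at 0.08 (0.499) and Ggps1, the geranylgeranyl diphosphate synthase gene, at 0.10 (0.562), and none of these 4 was called.

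Of 10 tested genes for SREBP processing and turnover, 0 were called, with 1 at an unadjusted p under 0.05 in the edgeR fit, a level that 2124 of all 11772 tested genes reached. Scap, the escort protein gene, had a log2 fold change of -0.03 (interval -0.17 to 0.12) and Insig2 -0.10 (interval -0.32 to 0.12). Mbtps1, the site-1 protease gene, averaged 232.4 ± 6.12 CPM in KO against 261.1 ± 15.6 CPM in WT (log2 fold change -0.17, edgeR adjusted p = 0.0624). The log2 fold change was -0.16 for Mbtps2, the site-2 protease gene (0.454), 0.27 for Erlin1 (0.377) and 0.12 for Erlin2 (0.536), whose products take part in degradation at the endoplasmic reticulum.

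Of 23 tested genes for fatty acid synthesis, elongation and activation, 1 was higher and 0 lower. Elovl5, the elongase of polyunsaturated fatty acids, had 316.4, 270.2, 251.4 and 247.5 CPM in KO and 173.9, 177.9, 178.2 and 168.2 CPM in WT. The groups were well apart, and the rise of 1.56-fold (log2 fold change 0.64, SE 0.0650, edgeR adjusted p = 5.04e-08) exceeded that of every tested member. In this list 4 genes (17.4%), Elovl5 included, had all KO libraries above all WT libraries, and 3 had all below. Over all 11772 tested genes these counts were 733 (6.23%) and 572. Those of lowest adjusted p among the uncalled genes with groups apart were the citrate carrier gene Slc25a1 (log2 fold change 0.35, edgeR adjusted p = 0.0694), the very-long-chain elongase gene Elovl1 (0.22, 0.0822) and, in the other direction, the dehydratase gene Hacd3 (-0.19, 0.0825) and Mlycd, the malonyl-CoA decarboxylase gene (-0.29, 0.101). Of 18 tested fatty acid oxidation genes 2 were higher and 1 lower: Acadl, a long-chain acyl-CoA dehydrogenase (0.35, edgeR adjusted p = 0.00418), Eci1, an enoyl-CoA isomerase (0.45, 0.0257), and Acaa2, the mitochondrial thiolase (-0.35, 0.00543). Eci1 lost its call in 7 alternatives, with a log2 fold change of 0.25 without Sample_2911_WT and Sample_2914_WT together (adjusted p = 0.441), a setting in which Acaa2 was also not called (0.0751).

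For sterol transport and storage 1 of 15 tested genes was higher and 1 lower. Gramd1a, which carries sterol from the plasma membrane to the endoplasmic reticulum, was higher at a log2 fold change of 0.23 (1333 ± 60.4 against 1136 ± 58.5 CPM, edgeR adjusted p = 0.00499). Npc2, the lysosomal sterol carrier, was lower at a log2 fold change of -0.24 (416.4 ± 5.43 against 490.2 ± 7.96 CPM, edgeR adjusted p = 0.00246). Among 10 tested genes listed for the liver X receptors (LXRs), which sense oxysterols, and for sterol efflux, 1 was higher and 1 lower. Smpdl3a, which encodes a secreted phosphodiesterase, rose 1.43-fold (137.5 ± 5.19 against 96.3 ± 3.01 CPM, edgeR adjusted p = 4.35e-07). Mylip, an LXR target gene whose product degrades lipoprotein receptors, had a log2 fold change of -0.26 and was called lower (edgeR adjusted p = 0.0142). Mylip lost that call without Sample_2911_WT and Sample_2914_WT together (0.0776), without Sample_2907_KO (0.0515) and without Sample_2913_WT (0.0541). The efflux gene Abca1, an LXR target, and the transporter gene Abca7 had log2 fold changes of -0.19 and 0.10 and were not called. Ch25h, the interferon-induced 25-hydroxylase, had 4 reads in KO and 1 in WT.

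Markers of other cells and states moved with the groups in places. The 5 regulatory T cell markers summed to 109.9 to 192.3 CPM in KO and 52.5 to 59.9 CPM in WT, with Foxp3 (93.4 against 8.41 CPM) and Tnfrsf18 called higher. Foxp3 was the largest part of the KO sum. Il2ra, Ikzf2 and Ctla4 had log2 fold changes of 0.41, 0.36 and 0.14 with overlapping groups. None of them was called (edgeR adjusted p = 0.392, 0.194 and 0.847). The 5 NK cell markers summed to 14.5 to 17.0 CPM in KO and 19.5 to 25.3 CPM in WT, and Klrd1, an NK receptor gene and the 1 tested, was called lower. Nearly all of these sums came from Klrd1, at a mean of 15.2 CPM in KO and 21.8 CPM in WT. The 7 markers of dividing cells overlapped, at 61.8 to 70.7 and 55.8 to 65.1 CPM, and Mcm5 (44.1 and 39.1 CPM) was most of each sum. Of the 5 tested, 3 had a log2 fold change above 0, and Tk1 alone was called higher. Mki67 and Top2a had log2 fold changes of -0.21 and -0.38 and were not called. Sums for 12 myeloid and dendritic markers were 10.2 to 16.4 CPM in KO and 1.98 to 30.1 CPM in WT, for 7 B cell markers 3.57 to 5.62 and 2.76 to 4.33 CPM, and for 2 CD8 markers 9.65 to 14.7 and 13.2 to 18.2 CPM. The 6 erythroid and platelet markers reached at most 0.757 CPM, with Hbb-bs, Hbb-bt and Pf4 at 0 reads, as were S100a8 and S100a9 among the myeloid markers. The 6 adipocyte and stromal markers summed to 279.5 to 292.9 CPM in KO and 287.5 to 291.3 CPM in WT, nearly all from Pecam1. Among them Adipoq, the adiponectin gene of fat cells, had 24 reads in KO (0.611, 0.658, 0.865 and 0.67 CPM) and 2 in WT, both in Sample_2914_WT (0.0891 CPM), so its groups did not overlap. Fabp4 had 4 reads in KO and 5 in WT, and Plin1 had 0 in all libraries. The part of these cells in the values of the sterol and fatty acid genes was not tested. In bulk RNA, fewer cells of a type and less RNA per cell cannot be told apart.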

How the data were processed

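Poly(A) RNA of 8 samples (4 KO, 4 WT, grouped by title) was sequenced as single reads with the TruSeq RNA Sample Preparation Kit v2, per the labels' protocols, a kit that does not mark strand. Genome build mm10 is named, and DESeq2 1.22.2, R 3.5.3, CASAVA 1.8.2 and FastQC were among the tools, per the submitters' processing notes. The aligner, counter and annotation were not given in the sources used here. The authors deposited whole-number read counts for 53465 gene IDs. The deposited normalized signal holds the 16418 genes with at least 10 reads over the samples, each value being the count over 1 size factor per sample, as tested on the files.

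The reported test on these counts was that of edgeR 4.0.16 in R 4.3.3 (TMM scaling, filterByExpr, robust quasi-likelihood F test), which kept 11772 genes, with Benjamini-Hochberg adjustment over all of them. The SE was taken as the size of the log2 fold change divided by the root of F. RPKM used the union of GENCODE M21 exons. Samples of a group differed by more than counting noise (chi-square per gene 2.67 to 11.3), so none was treated as a repeat of another; this does not show separate animals. The precision of each value follows its reads, 5227758 or more per sample. The steps were tested on simulated data. The members and lists were chosen with earlier results of these data known. All members are accounted for, and genes outside them are named from the lists, where called or up to 4 of lowest adjusted p. Scap, Insig2, Mlycd, Scd3, Scd4, Ch25h, Ctla4 and Adipoq fall outside that rule and were chosen after their values were seen. A result of the list of further sterol and isoprenoid enzymes is not reported here. Alternatives were DESeq2 1.42.0, limma 3.58.1 (voom with sample weights; trend on log2 of the normalized values plus 1 or 0.1), RLE or no scaling factors, no filter or 1 CPM in 4 samples, a non-robust fit, thinning to 5227758 reads, and leaving out samples.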

Additional observations from a re-analysis of the deposited data

Results flagged for a closer look

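In 5 of 54 groups of 4 libraries, 1 library stood apart from the other 3 by Dixon's test at the 95% level, where chance would give about 2.7. Acat2 in Sample_2909_KO was low at 14.7 CPM, with the nearest library at 21.6 CPM. Ebp in Sample_2907_KO was high at 38.3 CPM, with the nearest at 33.99 CPM. Srebf2 in Sample_2908_KO was low at 413.7 CPM, with the nearest at 463.6 CPM. Both Acly (302 CPM, nearest 276.6 CPM) and Acaca (36.3 CPM, nearest 29.5 CPM) were high in Sample_2915_WT.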

How the results depend on the processing

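No paired analysis was possible because the groups share no sample numbers. The median log2 fold change of all genes tested stayed between -0.016 and 0.00056. Without Sample_2911_WT and Sample_2914_WT together, 481 genes were called over the table (752 as reported), 2 members, 1 sterol enzyme and 1 fatty acid enzyme. With libraries thinned to the smallest, 2 sterol enzymes were called (4 as reported), and the fatty acid median log2 fold change was 0.16. Leaving out single libraries gave 4 to 8 called members, 2 to 5 called sterol enzymes and 562 to 836 genes over the table. The sign changed for some members that were not called. Without the WT pair, log2 fold changes were -0.0049 for Mvk, -0.089 for Sc5d, -0.011 for Acly and -0.058 for Acaca. Sc5d had -0.025 with limma-voom, -0.0062 with library size only, and -0.0081 with both limma-trend fits. Leaving out single libraries gave Sc5d -0.116 to 0.10, Pmvk -0.126 to 0.091, Mvd -0.0058 to 0.142 and Acaca -0.014 to 0.13, and Pmvk was 0.030 with limma-voom. For the changes of sign and lost calls the cause was not tested. Fewer libraries or reads enter the thinned and leave-out fits, whereas the other alternatives kept all libraries at full depth. Other members kept their sign in all alternatives. Low read counts limit Fdps and Idi1, which had intervals of over 0.8 on the log2 scale.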
